A study of Mus musculus with 12 samples.

Results

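The 40 genes described here encode proteins that copy DNA during S phase of the cell cycle, and they were followed in lungs of mice given paraquat (PQ), a herbicide that damages the lung. They are a list of gene symbols grouped by the proteins' known roles, drawn up with earlier results of these data known, and each was found by its exact symbol in the gene tables of the study. All 40 were listed in every one of the 12 libraries, out of 20774 genes listed in all. RNA came from whole, homogenized lung of wild-type C57BL/6J mice. The PQ 1w and PQ 4w groups had received 1 intratracheal dose of paraquat in saline, and the control 1w and control 4w groups had received saline in its place. Labels of 1w and 4w are taken to mean weeks, every group carries the same age label of 8 weeks, and each of the 4 groups holds 3 libraries. The labels number the replicates without saying that each is its own mouse, so a p-value here reflects the spread among these libraries, which may be technical.

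DNA is copied from origins that are marked by the origin recognition complex and loaded, or licensed, with the MCM helicase by Cdc6 and Cdt1. At the start of S phase Cdc45 and the GINS complex join the helicase and activate it, after which primase and the replicative polymerases copy both strands, held to DNA by the PCNA clamp. Most of these genes are known targets of E2F transcription factors, which are released from RB proteins when a cell commits to divide, and in an adult lung most cells are out of the cycle until injury calls some of them back into it.

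Values are expected counts scaled to the total of their library (CPM), used to compare 1 gene between libraries, and FPKM, scaled also to transcript length, used where genes are compared with each other. Library totals were 17220978 to 18559809 expected counts. Effects are log2 ratios (± an approximate standard error) by edgeR's quasi-likelihood test with all 12 libraries in 1 model, 15921 genes were tested, and a gene rose or fell where its Benjamini-Hochberg adjusted p over all of them was under 0.05. All 40 replication genes entered the test. PQ 4w replicate 3 stood apart from its group: chi-square over genes, divided by its degrees of freedom, was 32.2 and 34.4 against the other two PQ 4w libraries, and 7.41 to 16.2 for all other replicate pairs. Results at 4w are therefore also given without it. Markers of the lung were present throughout: genes of alveolar type 2 cells, such as the surfactant gene Sftpc, summed to 15599 to 17210 CPM in PQ 1w libraries, 25201 to 26721 CPM in PQ 4w, 24921 to 31052 CPM in control 1w and 22400 to 25281 CPM in control 4w. In RNA from whole lung, more cells that transcribe a gene and more of its RNA per cell cannot be told apart.

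At 1w, 40 of the 40 replication genes rose in PQ lungs, where 25.9% of all genes tested rose. The median log2 effect of the list was 1.37, or 2.58-fold, while that of all genes was 0.005. Effects ran from 1.22-fold for Gins4, a subunit of the GINS complex, to 5.82-fold for Tk1, the thymidine kinase of the cytosol, and Gins2, another GINS subunit. At least 2-fold increases were called for 29 of the 40, against 7.23% of all genes. In all 40, the lowest PQ 1w library lay above the highest control 1w library, a separation seen upward for 31.5% of genes. Summed over the list, the CPM were 1207 to 1386 in PQ 1w libraries and 513.2 to 562.9 in control 1w libraries. In 39 of the 40 genes the highest of all 12 libraries was a PQ 1w library, the exception being Rfc2. In 38 of the 40 the lowest PQ 1w library lay above all 9 other libraries. How many of all genes have these orders was not counted. PQ 1w replicate 3 was the highest of its group for 33 genes.

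At 4w, 11 of the 40 rose in PQ lungs, where 5.75% of all genes rose, 0 fell, where 6.39% of all genes fell, and 29 did not pass. By edgeR at an unadjusted p under 0.05, 21 were higher and 1 was lower, where 13.1% of all genes were higher and 14.9% lower. DESeq2 called 10 higher and 0 lower, where it called 7.25% of all genes higher and 6.65% lower. With library totals as the only scaling, 15 of the 40 rose, where 8.6% of all genes rose and 3.96% fell. The 11 were Cdc6, Cdt1, Mcm4, Mcm5, Mcm6, Mcm10, Pole, Rrm1, Rrm2, Tk1 and Uhrf1, and the largest increase was 1.88-fold, for Pole. The effect at 4w was smaller than at 1w in all 40 genes, and the interaction term, the effect at 4w minus that at 1w, was below zero with adjusted p under 0.05 for 37 of them, against 17.9% of all genes. PQ 4w lungs were below PQ 1w lungs in 39 of the 40, where 27.8% of all genes were below. Between the saline groups, 12 of the 40 were lower at 4w than at 1w, where 4.2% of all genes were lower.

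**Figure D1:**
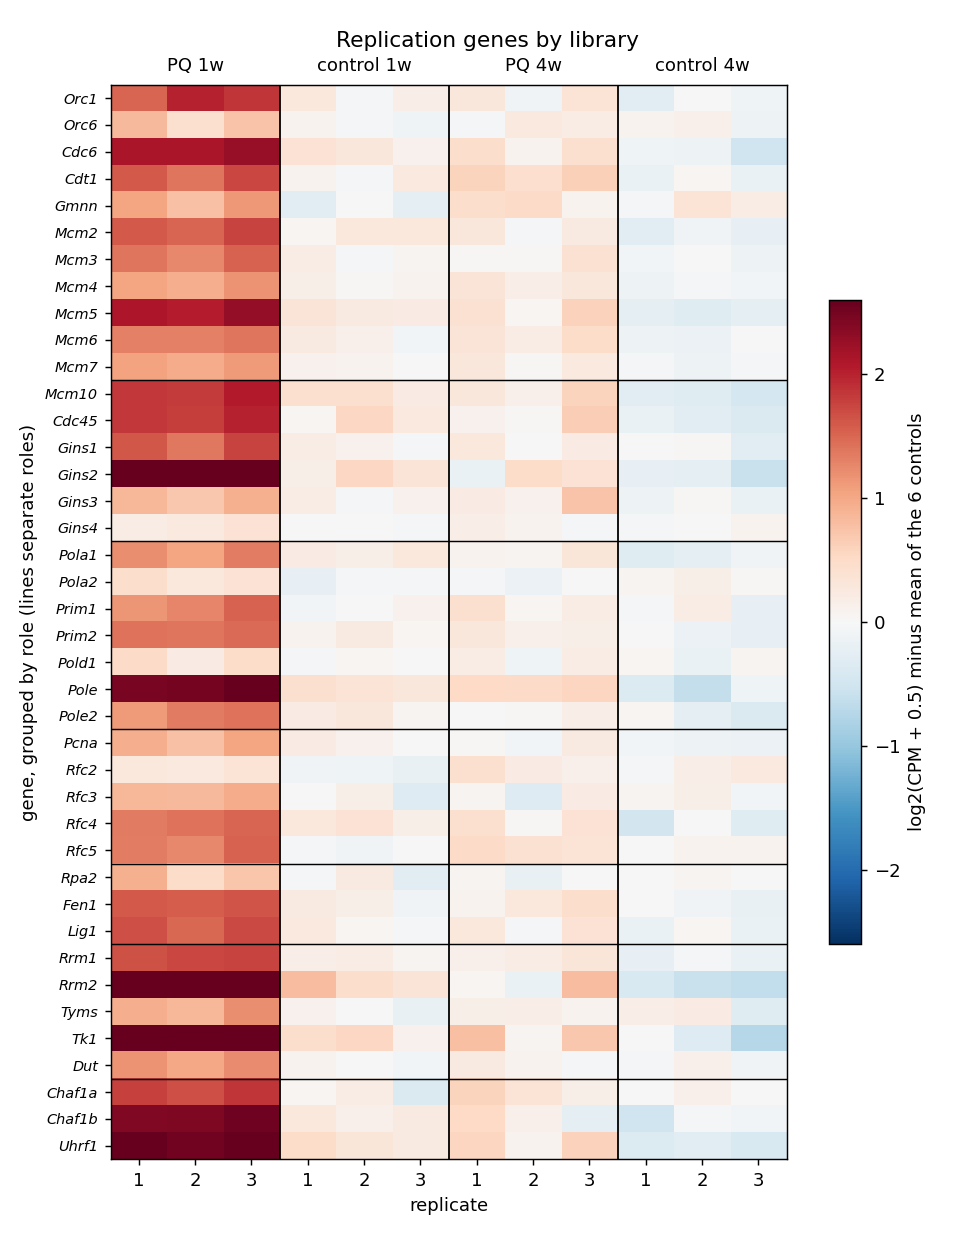
Level of each of the 40 replication genes (rows, grouped by role) in each of the 12 libraries (columns), as log2(CPM + 0.5) minus the mean of the 6 control libraries, with the colour scale ending at 2.6 in both directions. The PQ 1w libraries form 1 block of raised values down the whole list, averaging 1.38 to 1.58 per library, while PQ 4w libraries average 0.11 to 0.31.

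The sequence upstream of these genes was read in RefSeq's promoter table (GRCm38.p6), which held 32 of the 40 in windows of 250 bases before to 50 bases after a gene start. An E2F motif, taken as TTTCCCGC, TTTGGCGC, TTTCGCGC or TTTGCCGC on either strand, was present in 14 of the 32 (43.8%), and in 704 of 27025 genes in the table (2.61%). The CCAAT box, the sequence bound by NF-Y, was present in 19 of the 32 (59.4%) and in 41.1% of all genes, and both motifs in 9 of the 32 (28.1%) and in 1.26% of all genes. In 1 of the 37 promoters of these 32 genes an E2F match and a CCAAT match shared bases. The promoters of the list were also richer in G and C, with a median of 58.3% against 52.7% over all promoters. The hexamer TTTGAA, read on both strands as the CHR element of G2 and M phase genes, was present in 4 of the 32 (12.5%) and in 20.2% of all genes, and the E-box CACGTG in 5 of the 32 (15.6%) and in 8.09%. A match is a run of letters and no measure of binding. The 14 genes with an E2F motif had a median increase of 2.43-fold at 1w and the 18 without one 2.72-fold, so the size of the increase was not larger where the motif was present. Shown here are stretches that end at the base before the start in the promoter table, 5′ to 3′ on the gene's own strand. For Mcm5 that start lies inside the gene position given below, which begins at 75109468. The genes are 2 helicase subunits that rose at both times, Gins3, which has both motifs and a modest increase, and Rrm2. Rrm2 has a CCAAT box without an E2F match and one of the largest increases. The stretches lie at chr8:75109349-75109508 (plus strand) for Mcm5, chr1:128359706-128359825 (minus strand) for Mcm6, chr8:95633409-95633558 (plus strand) for Gins3 and chr12:24708154-24708253 (plus strand) for Rrm2. Capitals mark the E2F and CCAAT matches on either strand.
Mcm5: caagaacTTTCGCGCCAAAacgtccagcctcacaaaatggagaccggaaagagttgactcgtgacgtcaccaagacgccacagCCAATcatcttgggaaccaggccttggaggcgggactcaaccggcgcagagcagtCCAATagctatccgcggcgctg
Mcm6: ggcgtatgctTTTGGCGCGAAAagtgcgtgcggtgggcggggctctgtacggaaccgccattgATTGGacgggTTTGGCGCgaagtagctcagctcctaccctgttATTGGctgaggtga
Gins3: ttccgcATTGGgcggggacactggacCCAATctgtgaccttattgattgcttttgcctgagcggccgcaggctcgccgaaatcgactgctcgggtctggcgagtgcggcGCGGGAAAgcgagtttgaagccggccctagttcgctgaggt
Rrm2: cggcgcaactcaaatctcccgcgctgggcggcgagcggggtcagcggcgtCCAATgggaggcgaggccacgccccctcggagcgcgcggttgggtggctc
Mcm5 and Mcm6 each carry a pair of E2F matches that overlap on opposite strands, and Mcm6 carries a further match near its start.

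The licensing genes rose together at 1w, 11 of 11, with a median of 2.51-fold, and 5 of the 11 also rose at 4w. Orc1, the ATP-binding subunit that opens the origin recognition complex to Cdc6 (chromosome 4, 108575705 to 108616030), was at 2.42, 3.62 and 3.22 CPM in the PQ 1w libraries and 0.755, 0.458 and 0.801 CPM in the PQ 4w libraries, against 0.728, 0.498 and 0.658 CPM in control 1w and 0.338, 0.514 and 0.449 CPM in control 4w. The PQ 1w libraries lay far above all others at these low levels, and the PQ 4w and both control groups overlapped. Orc1 rose 4.83-fold at 1w (log2 2.27 ± 0.27, adjusted p = 2.69e-05), the largest increase among the licensing genes, and at 4w its log2 effect was 0.55 ± 0.33 (adjusted p = 0.344). Orc6, the smallest subunit of the same complex (chromosome 8, 85299632 to 85308279), was at 24.2, 17.8 and 22.4 CPM in the PQ 1w libraries and 12.9, 15.9 and 15.1 CPM in the PQ 4w libraries, against 14.1, 12.8 and 12.1 CPM in control 1w and 14.1, 14.4 and 12 CPM in control 4w. It had the smallest increase of the licensing genes, 1.64-fold at 1w (log2 0.71 ± 0.13, adjusted p = 0.000932), and its PQ 4w values overlapped those of the controls.

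Cdc6 and Cdt1 load the helicase onto origins, and both rose at both times. Cdc6 (chromosome 11, 98907709 to 98923942) was at 10.6, 10.7 and 11.8 CPM in the PQ 1w libraries and 3.02, 2.23 and 2.92 CPM in the PQ 4w libraries, against 2.80, 2.66 and 2.25 CPM in control 1w and 1.86, 1.83 and 1.29 CPM in control 4w. Every PQ 1w value was far above the rest, and the PQ 4w values lay above control 4w and overlapped control 1w. The increase was 4.26-fold at 1w (log2 2.09 ± 0.16, adjusted p = 1.11e-06) and 1.56-fold at 4w (log2 0.64 ± 0.18, adjusted p = 0.0410). Without PQ 4w replicate 3, the 4w effect had an adjusted p of 0.0809. The 4w effect of Cdc6 passed in 4 of the 12 fits with 1 library left out. It passed in 3 of 9 other settings, and by DESeq2 its adjusted p was 0.0572. Cdt1 (chromosome 8, 122568015 to 122573130) was at 20.3, 17.6 and 22.8 CPM in the PQ 1w libraries and 9.81, 8.94 and 10.1 CPM in the PQ 4w libraries, against 6.89, 6.25 and 7.73 CPM in control 1w and 5.63, 6.68 and 5.67 CPM in control 4w, so that in both treated groups every library lay above every control. It rose 2.88-fold at 1w (log2 1.53 ± 0.12, adjusted p = 1.61e-06) and 1.53-fold at 4w (log2 0.61 ± 0.13, adjusted p = 0.0110). Gmnn encodes geminin, which binds Cdt1 and blocks relicensing, and it rose 2.30-fold at 1w (adjusted p = 8.52e-05), with a log2 effect of 0.12 ± 0.16 at 4w (adjusted p = 0.670).

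The 6 subunits of the MCM ring, the motor of the replicative helicase, all rose at 1w, between 1.95-fold (Mcm7) and 3.75-fold (Mcm5). Mcm5 (chromosome 8, 75109468 to 75128439) was at 55.2, 53.0 and 63.0 CPM in the PQ 1w libraries and 16.7, 12.9 and 19.2 CPM in the PQ 4w libraries, against 15.8, 14.8 and 14.6 CPM in control 1w and 10.5, 9.95 and 10.4 CPM in control 4w. PQ 1w values stood clear of all others, the control 4w libraries were the lowest, and PQ 4w values straddled those of control 1w. Mcm5 rose 3.75-fold at 1w (log2 1.91 ± 0.12, adjusted p = 2.13e-07) and 1.5-fold at 4w (log2 0.58 ± 0.12, adjusted p = 0.0114). Mcm6 (chromosome 1, 128331575 to 128359705) was at 77.6, 78.0 and 81.8 CPM in the PQ 1w libraries and 39.4, 35.7 and 43.4 CPM in the PQ 4w libraries, against 36.6, 34.2 and 29.5 CPM in control 1w and 28.2, 27.8 and 30.9 CPM in control 4w. Its PQ 1w libraries were the highest by a wide margin, and its PQ 4w libraries were above all of control 4w. It rose 2.35-fold at 1w (log2 1.23 ± 0.09, adjusted p = 5.74e-07) and 1.30-fold at 4w (log2 0.37 ± 0.09, adjusted p = 0.0188). The promoters of Mcm5 and Mcm6 are those printed above.

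Mcm7 (chromosome 5, 138164583 to 138172111) was at 60.8, 57.8 and 63.6 CPM in the PQ 1w libraries and 36.2, 30.2 and 35.3 CPM in the PQ 4w libraries, against 31.8, 31.5 and 29.5 CPM in control 1w and 28.4, 26.7 and 28.6 CPM in control 4w. The PQ 1w values were again apart and the PQ 4w values overlapped those of control 1w, with an increase of 1.95-fold at 1w (adjusted p = 9.23e-07) and a log2 effect of 0.21 ± 0.07 at 4w (adjusted p = 0.0889). Mcm4 (chromosome 16, 15623897 to 15637400) was at 49.9, 47.3 and 55.1 CPM in the PQ 1w libraries and 30.7, 27.4 and 29.8 CPM in the PQ 4w libraries, against 26.8, 24.6 and 25.6 CPM in control 1w and 22.1, 23.2 and 22.8 CPM in control 4w, with treated libraries above all controls at both times. Mcm4 rose 1.96-fold at 1w (log2 0.97 ± 0.07, adjusted p = 4.74e-07) and 1.23-fold at 4w (log2 0.29 ± 0.07, adjusted p = 0.0169). The other two ring subunits, Mcm2 and Mcm3, rose 2.68-fold and 2.51-fold, with adjusted p of 5.09e-07 and 1.54e-06 at 1w, and at 4w their effects had adjusted p of 0.0674 and 0.364.

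Genes of helicase activation rose in 6 of 6 cases at 1w, over the widest range of any role, and 1 of the 6 rose at 4w. Gins2 (chromosome 8, 120581266 to 120589075) was at 12.8, 12.6 and 12.4 CPM in the PQ 1w libraries and 1.34, 2.40 and 2.18 CPM in the PQ 4w libraries, against 1.80, 2.5 and 2.12 CPM in control 1w and 1.30, 1.27 and 0.880 CPM in control 4w. Its PQ 1w libraries agreed closely and stood far above all others, PQ 4w overlapped control 1w, and the control 4w libraries were the lowest. It rose 5.82-fold at 1w (log2 2.54 ± 0.21, adjusted p = 1.56e-06), and at 4w its log2 effect was 0.71 ± 0.25 (adjusted p = 0.0829). Gins4 (chromosome 8, 23226610 to 23237668), its partner in the same 4-part ring, was at 24.4, 25.5 and 27.7 CPM in the PQ 1w libraries and 23.9, 22.6 and 20.7 CPM in the PQ 4w libraries, against 21.5, 21.3 and 20.4 CPM in control 1w and 20.5, 21.1 and 22.8 CPM in control 4w. These values barely moved between groups, although all 3 PQ 1w libraries were above the controls. The increase of Gins4 was 1.22-fold at 1w (log2 0.28 ± 0.08, adjusted p = 0.0101), the smallest of all 40 genes. Gins1 and Gins3, the remaining GINS subunits, rose 3.35-fold and 1.76-fold, with adjusted p of 1.26e-05 and 0.00247. Exons of Gins2 share 2758 bases with Gse1 on the opposite strand (GENCODE vM21, GRCm38), which averaged 72.7 CPM in PQ 1w and 92.7 CPM in control 1w. Whether counting used strand is not given in the sources used here, so reads within the shared bases may not be told apart. The listed transcript length of Gins2 was 1061 bases, so not all shared bases lie in it.

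Cdc45 completes the active helicase, and Mcm10 assists the step at which the paired helicases separate. Cdc45 (chromosome 16, 18780447 to 18811972) was at 12, 11.7 and 13.4 CPM in the PQ 1w libraries and 3.25, 3.09 and 4.98 CPM in the PQ 4w libraries, against 3.14, 4.59 and 3.67 CPM in control 1w and 2.59, 2.34 and 2.19 CPM in control 4w, with 1 high library in both PQ 4w (replicate 3) and control 1w (replicate 2). Its increase at 1w was 3.22-fold (log2 1.69 ± 0.19, adjusted p = 1.87e-05), and at 4w the log2 effect was 0.60 ± 0.21 (adjusted p = 0.0849). Mcm10 (chromosome 2, 4990724 to 5012791) was at 9.43, 9.24 and 11.1 CPM in the PQ 1w libraries and 2.90, 2.52 and 3.61 CPM in the PQ 4w libraries, against 3.19, 3.21 and 2.72 CPM in control 1w and 1.78, 1.71 and 1.51 CPM in control 4w. Treated libraries lay above the controls of the same time in both comparisons, and PQ 4w overlapped control 1w. Mcm10 rose 3.22-fold at 1w (log2 1.69 ± 0.15, adjusted p = 3.93e-06) and 1.70-fold at 4w (log2 0.77 ± 0.17, adjusted p = 0.0155).

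Among primase and the polymerases, 7 of 7 genes rose at 1w, and Pole, the catalytic subunit of the polymerase of the leading strand, rose most and was the 1 that also rose at 4w. Pole (chromosome 5, 110286319 to 110337468) was at 21.6, 22.1 and 28.0 CPM in the PQ 1w libraries and 5.23, 5.16 and 5.38 CPM in the PQ 4w libraries, against 4.87, 4.65 and 4.38 CPM in control 1w and 2.65, 2.11 and 3.20 CPM in control 4w. PQ 1w values were far above those of any other group, the 3 PQ 4w libraries lay within a narrow band above all controls, and control 4w was lowest. It rose 5.10-fold at 1w (log2 2.35 ± 0.15, adjusted p = 2.85e-07) and 1.88-fold at 4w (log2 0.91 ± 0.16, adjusted p = 0.00535). Pold1, the catalytic subunit of polymerase delta, the enzyme of the lagging strand (chromosome 7, 44532744 to 44548815), was at 37.8, 31.2 and 37.4 CPM in the PQ 1w libraries and 30.5, 24.9 and 30.4 CPM in the PQ 4w libraries, against 26.2, 27.8 and 26.9 CPM in control 1w and 27.7, 23.6 and 28.3 CPM in control 4w, and the PQ 4w libraries overlapped both control groups. Its increase was 1.30-fold at 1w (log2 0.38 ± 0.10, adjusted p = 0.00902), the smallest of its role, with a log2 effect of 0.03 ± 0.11 at 4w (adjusted p = 0.869).

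Polymerase alpha with primase begins each new strand. Pola2, its regulatory subunit (chromosome 19, 5940543 to 5964238), was at 24.9, 22.1 and 23.7 CPM in the PQ 1w libraries and 17.8, 16.2 and 18.4 CPM in the PQ 4w libraries, against 15.6, 17.8 and 17.9 CPM in control 1w and 19.1, 20.3 and 18.6 CPM in control 4w. The PQ 1w libraries were the highest, and PQ 4w was the lower group at 4w, each library below every control 4w library, the only 1 of the 40 with that order, where 10.4% of all genes had it. Pola2 rose 1.37-fold at 1w (log2 0.45 ± 0.09, adjusted p = 0.000969), and its log2 effect at 4w was -0.22 ± 0.09 (adjusted p = 0.123). The catalytic subunit Pola1 rose 2.01-fold (adjusted p = 2.78e-05), and the primase subunits Prim1 and Prim2 rose 2.6-fold and 2.56-fold, with adjusted p of 1.33e-05 and 1.43e-06. Pole2, the second subunit of polymerase epsilon, rose 2.35-fold (adjusted p = 0.000114). At 4w these 4 had log2 effects of 0.19 to 0.33 and did not pass.

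The clamp and its loader had the smallest median increase of any role, 1.96-fold with 5 of 5 rising at 1w, and their effects at 4w did not pass. Pcna, the ring that tethers polymerases to DNA (chromosome 2, 132249286 to 132253180), had the highest FPKM of the list and was at 132, 117 and 140.2 CPM in the PQ 1w libraries and 70.3, 65.9 and 81.2 CPM in the PQ 4w libraries, against 80.3, 74.1 and 69.6 CPM in control 1w and 65.8, 62.5 and 62.1 CPM in control 4w. All PQ 1w libraries were far above the rest, while PQ 4w overlapped control 1w. Pcna rose 1.73-fold at 1w (log2 0.79 ± 0.09, adjusted p = 1.66e-05), and at 4w the log2 effect was 0.12 ± 0.09 (adjusted p = 0.419). The loader subunit Rfc5 (chromosome 5, 117379145 to 117389023) was at 21.8, 20.5 and 25.0 CPM in the PQ 1w libraries and 11.9, 11.1 and 10.8 CPM in the PQ 4w libraries, against 8.07, 7.75 and 8.27 CPM in control 1w and 8.23, 8.96 and 8.86 CPM in control 4w. PQ 4w libraries lay above all 6 controls here, and control 4w was not below control 1w. Rfc5 rose 2.77-fold at 1w (log2 1.47 ± 0.10, adjusted p = 4.02e-07), and its log2 effect at 4w was 0.30 ± 0.10 (adjusted p = 0.0672). Exons of Rfc5 share 499 bases with Wsb2 on the opposite strand, which averaged 149.0 CPM in PQ 1w and 132 CPM in control 1w.

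Rfc2, another loader subunit (chromosome 5, 134582690 to 134598328), followed a pattern of its own and was at 37.7, 37.3 and 40.3 CPM in the PQ 1w libraries and 42.0, 36.5 and 34.3 CPM in the PQ 4w libraries, against 29.1, 29.1 and 27.2 CPM in control 1w and 30.6, 35.3 and 37.5 CPM in control 4w. The highest library was PQ 4w replicate 1, control 4w overlapped both treated groups, and control 1w was the low group. Rfc2 rose 1.34-fold at 1w (log2 0.42 ± 0.09, adjusted p = 0.00154). It was the 1 gene of the 40 that did not pass between PQ 4w and PQ 1w (log2 -0.10 ± 0.08, adjusted p = 0.332). Exons of Rfc2 share 952 bases with Lat2 on the opposite strand, which averaged 14 CPM in PQ 1w, 18.5 CPM in PQ 4w, 11.6 CPM in control 1w and 12.5 CPM in control 4w. Rfc3 and Rfc4 rose 1.96-fold and 2.37-fold, with adjusted p of 0.000323 and 4.81e-05 at 1w.

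Genes of single-strand binding and of Okazaki fragment joining rose in 3 of 3 cases at 1w, and their effects at 4w did not pass. Lig1, the ligase that seals Okazaki fragments (chromosome 7, 13277175 to 13311426), was at 50.6, 44.5 and 51.8 CPM in the PQ 1w libraries and 18.9, 14.9 and 20.3 CPM in the PQ 4w libraries, against 18.6, 16.1 and 15.2 CPM in control 1w and 13.7, 16.0 and 13.6 CPM in control 4w. Only the PQ 1w libraries stood apart, since the PQ 4w libraries overlapped both control groups. It rose 2.92-fold at 1w (log2 1.55 ± 0.11, adjusted p = 6.88e-07), with a log2 effect of 0.25 ± 0.12 at 4w (adjusted p = 0.184). Fen1, the nuclease that trims the flap before ligation (chromosome 19, 10199132 to 10204393), was at 31.9, 31.4 and 33.1 CPM in the PQ 1w libraries and 11, 12.5 and 14.3 CPM in the PQ 4w libraries, against 12.2, 11.5 and 9.59 CPM in control 1w and 10.3, 9.59 and 8.92 CPM in control 4w. PQ 1w was well above the rest and PQ 4w was above control 4w but mixed with control 1w. Fen1 rose 2.87-fold at 1w (log2 1.52 ± 0.12, adjusted p = 1.08e-06). Its exons share 1909 bases with the antisense gene Gm10143. Rpa2, a subunit of the complex that coats single-stranded DNA (chromosome 4, 132768360 to 132778746), was at 22.9, 16.7 and 19.7 CPM in the PQ 1w libraries and 12.4, 10.3 and 11.7 CPM in the PQ 4w libraries, against 11.5, 13.8 and 9.59 CPM in control 1w and 11.9, 12.3 and 11.8 CPM in control 4w. It was the least moved of the 3, rising 1.68-fold at 1w (log2 0.75 ± 0.15, adjusted p = 0.00117), and PQ 4w lay among the controls.

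The enzymes that supply deoxynucleotides rose in 5 of 5 cases at 1w, each at least 2-fold, and 3 of the 5 rose at 4w. Tk1, which salvages thymidine (chromosome 11, 117815519 to 117826087), was at 36.7, 34.3 and 36.7 CPM in the PQ 1w libraries and 8.26, 4.84 and 7.78 CPM in the PQ 4w libraries, against 6.50, 6.86 and 5.0 CPM in control 1w and 4.54, 3.53 and 2.55 CPM in control 4w. The PQ 1w libraries were far above any other, PQ 4w replicate 2 was the low library of its group, and control 4w was lowest. Tk1 rose 5.82-fold at 1w (log2 2.54 ± 0.21, adjusted p = 1.74e-06) and 1.86-fold at 4w (log2 0.90 ± 0.23, adjusted p = 0.0239). Rrm1, the large subunit of ribonucleotide reductase (chromosome 7, 102441695 to 102469771), was at 89.2, 94.6 and 96.0 CPM in the PQ 1w libraries and 30.8, 32.4 and 34.8 CPM in the PQ 4w libraries, against 31.5, 32.2 and 29.5 CPM in control 1w and 24, 27.4 and 24.9 CPM in control 4w. Replicates agreed closely in every group, and among the groups other than PQ 1w the control 4w libraries were lowest. Rrm1 had the smallest p of the list at 1w, rising 2.98-fold (log2 1.57 ± 0.07, adjusted p = 1.85e-08), and it rose 1.22-fold at 4w (log2 0.29 ± 0.07, adjusted p = 0.0196). Without PQ 4w replicate 3 the 4w effect of Rrm1 had an adjusted p of 0.0548.

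Rrm2, the small subunit of the same enzyme, whose protein is made in S phase (chromosome 12, 24708254 to 24714146), was at 52.9, 49.1 and 58.6 CPM in the PQ 1w libraries and 6.56, 5.5 and 11.4 CPM in the PQ 4w libraries, against 11.4, 8.86 and 8.06 CPM in control 1w and 4.68, 4.05 and 3.87 CPM in control 4w. PQ 4w replicate 3 was far above the other two PQ 4w libraries and level with the highest control 1w library, and the control 4w libraries were the lowest. Rrm2 rose 5.63-fold at 1w (log2 2.49 ± 0.21, adjusted p = 2.17e-06) and 1.77-fold at 4w (log2 0.82 ± 0.24, adjusted p = 0.0428). Without PQ 4w replicate 3 the increase at 4w was 1.36-fold (adjusted p = 0.0978). The 4w effect of Rrm2 passed in 2 of the 12 fits with 1 library left out and in 6 of 9 other settings. Tyms, thymidylate synthase (chromosome 5, 30038546 to 30073645), was at 41.3, 39.4 and 50.01 CPM in the PQ 1w libraries and 23.8, 24.1 and 22.7 CPM in the PQ 4w libraries, against 23.1, 21.4 and 18.5 CPM in control 1w and 24.1, 25.0 and 17.1 CPM in control 4w, and outside PQ 1w the groups overlapped. It rose 2.06-fold at 1w (log2 1.04 ± 0.13, adjusted p = 5.79e-05), the smallest increase of its role. A pseudogene, Tyms-ps, is listed separately in the tables, so some reads of Tyms could have been assigned to it. Dut, which removes dUTP, rose 2.24-fold at 1w (adjusted p = 3.54e-06).

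The 3 genes of chromatin copying had the largest median increase of any role at 1w, 5.20-fold, and 1 of the 3 rose at 4w. Uhrf1, which reads hemimethylated DNA behind the fork and recruits the maintenance methyltransferase (chromosome 17, 56303337 to 56323486), was at 43.9, 39.2 and 49.5 CPM in the PQ 1w libraries and 9.81, 6.93 and 10.1 CPM in the PQ 4w libraries, against 9.19, 8.19 and 7.73 CPM in control 1w and 4.96, 5.19 and 4.82 CPM in control 4w. PQ 1w was far above everything else, PQ 4w overlapped control 1w, and the control 4w libraries were low and tight. Uhrf1 rose 5.24-fold at 1w (log2 2.39 ± 0.13, adjusted p = 1.12e-07) and 1.70-fold at 4w (log2 0.77 ± 0.14, adjusted p = 0.00653). Chaf1a, the large subunit of the CAF-1 histone chaperone (chromosome 17, 56040416 to 56068026), was at 31.4, 29.3 and 33.1 CPM in the PQ 1w libraries and 13.4, 11.4 and 9.84 CPM in the PQ 4w libraries, against 9.13, 10.2 and 6.64 CPM in control 1w and 8.79, 9.76 and 8.82 CPM in control 4w. Outside PQ 1w its values were mixed, although the PQ 4w libraries were above control 4w. Chaf1a rose 3.58-fold at 1w (log2 1.84 ± 0.15, adjusted p = 1.62e-06), and its exons share 4648 bases with Ubxn6 on the opposite strand, which averaged 57.7 CPM in PQ 1w and 53.9 CPM in control 1w. Chaf1b, its partner subunit, rose 5.20-fold at 1w (log2 2.38 ± 0.19, adjusted p = 1.29e-06). In all, 14 of the 40 genes share exon bases with another annotated gene.

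**Figure D2:**
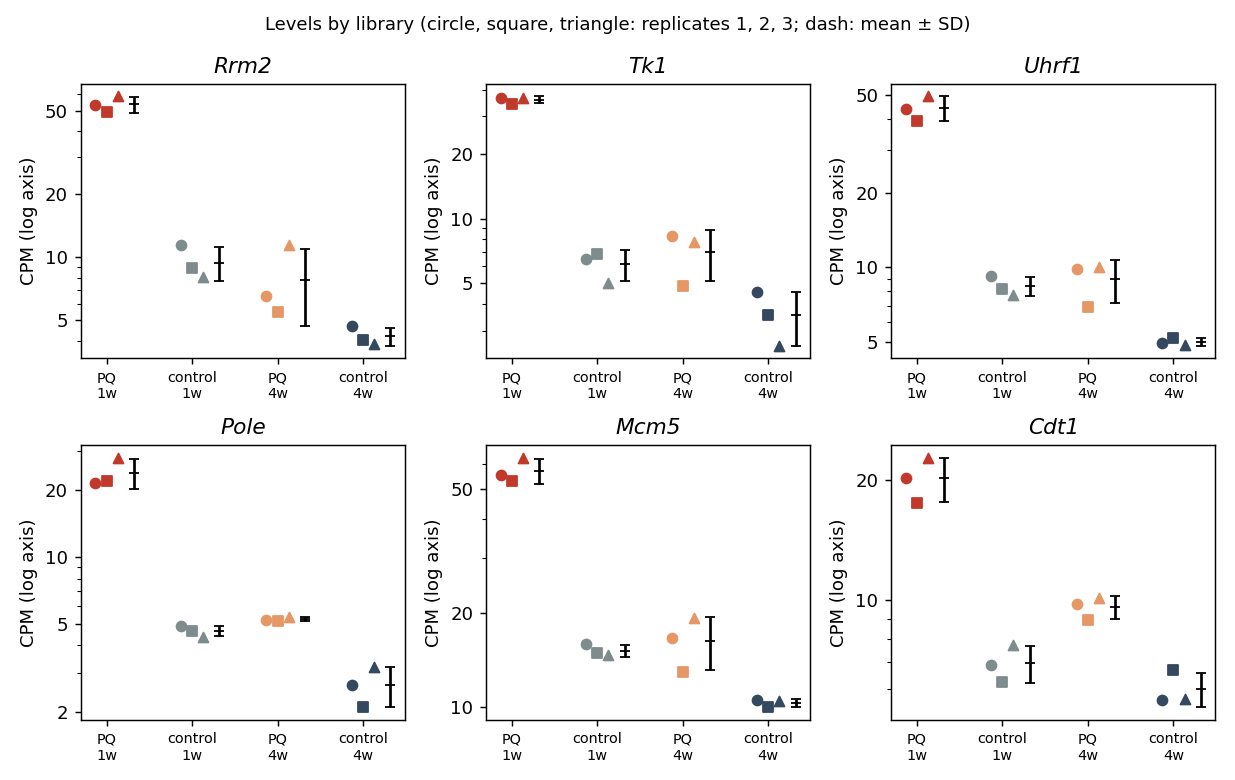
CPM on a log axis for 6 replication genes chosen after their values were seen, with 1 point per library (replicates 1, 2 and 3 as circle, square and triangle) and the mean ± SD of each group beside them. In all 6 the PQ 1w libraries are highest, and each PQ 4w library lies above the control 4w libraries. For Rrm2, PQ 4w replicate 3 was at 11.4 CPM and the other two PQ 4w libraries at 6.56 and 5.5 CPM.

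Levels of the 40 genes differed widely in control lungs, and the genes that were low in control 1w had the larger increases. In control 1w the mean FPKM ran from 0.207 (Orc1) to 59.9 (Pcna). The 20 genes below the list's median of 4.43 FPKM had a median increase of 3.28-fold in PQ 1w, and the 20 above it 2.01-fold. Across the 40 genes, log2 FPKM in control 1w and log2 effect at 1w had a Pearson correlation of -0.60 and a Spearman correlation of -0.64, as a description, since both axes use the control 1w libraries and low genes are measured less precisely. Within complexes, the FPKM of subunits on the list lay closer to each other in PQ 1w than in any other group for all 7 sets compared. These sets are not always whole complexes. Pole3, Pole4 and Rfc1 are outside them, and Pole4 and Rfc1 had log2 effects of -0.24 and 0.22 at 1w. The origin recognition complex and polymerase delta were not compared in this way.

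Among the 6 MCM ring subunits, the highest FPKM was 1.83 times the lowest in PQ 1w, 3.0 times in PQ 4w, 2.95 times in control 1w and 3.91 times in control 4w. The lowest was Mcm5 in every group but PQ 1w, where Mcm5 was at 16.5 ± 1.51 FPKM and Mcm4 was lowest at 14 ± 1.1 FPKM (mean ± SD, n = 3). For ribonucleotide reductase, the ratio of Rrm2 to Rrm1 in FPKM was 1.09, 0.950 and 1.12 in the PQ 1w libraries and 0.391, 0.311 and 0.599 in PQ 4w, against 0.662, 0.504 and 0.5 in control 1w and 0.357, 0.271 and 0.286 in control 4w. The small subunit was thus near parity with the large one in PQ 1w libraries alone. For CAF-1, Chaf1a and Chaf1b were at 9.39 ± 0.576 and 9.24 ± 0.424 FPKM in PQ 1w, and at 2.59 ± 0.545 and 1.76 ± 0.101 FPKM in control 1w. For polymerase epsilon, Pole and Pole2 were at 3.29 ± 0.495 and 3.51 ± 0.424 FPKM in PQ 1w, and at 0.637 ± 0.0351 and 1.47 ± 0.136 FPKM in control 1w. The GINS subunits stayed unequal, with Gins4 at 19.1 ± 1.25 FPKM in PQ 1w and 15.6 ± 0.416 FPKM in control 1w, and the highest over lowest was 7.39 in PQ 1w and 10.7 in control 1w. For Rfc2 to Rfc5 this ratio was 3.40 in PQ 1w and 6.02 in control 1w, and for polymerase alpha with primase 3.04 in PQ 1w and 4.46 in control 1w.

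**Figure D3:**
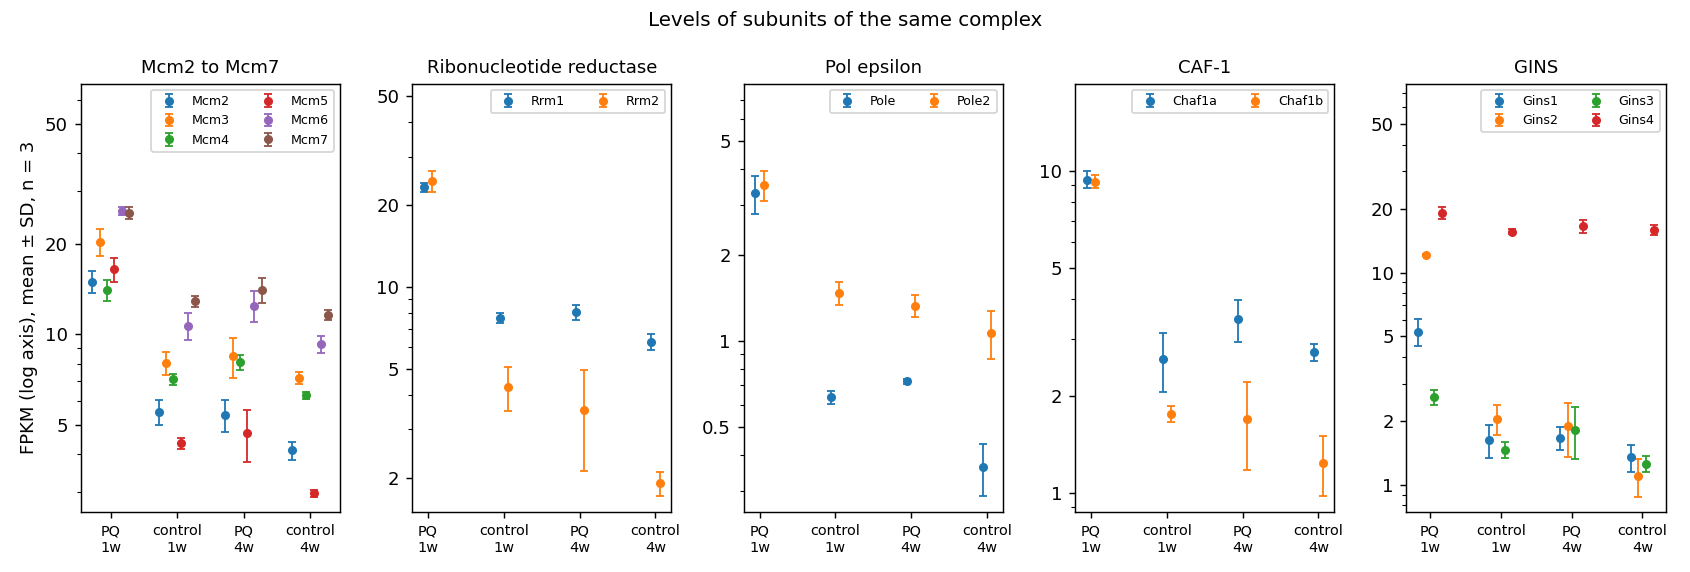
Mean FPKM ± SD (n = 3, log axis) of those subunits of 5 replication enzymes that are on the list, in the 4 groups. The subunits shown of the MCM ring, ribonucleotide reductase, polymerase epsilon and CAF-1 lie closer together in PQ 1w than in control 1w. Gins4 lies above the other GINS subunits in every group.

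At 4w the effects were smaller and less firmly called. Of the 40 genes, 36 had a log2 effect above zero, with a median of 0.29, while the median of all genes was 0.004. In 24 of the 40 all PQ 4w libraries lay above all control 4w libraries, where 20.9% of all genes had that order. Pole, Uhrf1 and Mcm5 passed whichever of the 12 libraries was left out, and Pole, Uhrf1 and Cdt1 passed under all 9 other settings tried. Without PQ 4w replicate 3, 8 of the 40 passed, where 6.59% of all genes rose, and those lost were Cdc6, Rrm1 and Rrm2. The calls of Cdc6 and Rrm2 did not hang on that library alone. Over the 12 fits with 1 library left out, Cdc6 passed in 4 and Rrm2 in 2. The count was 5 without control 4w replicate 1 (2.18% of all genes), 6 without control 4w replicate 3 (3.62%), 14 without PQ 4w replicate 2 (6.13%), and 3 when the fit held only the 6 libraries compared (2.35%). Summed over the list, the CPM were 544.2, 603.0 and 623.2 in PQ 4w libraries and 478.7 to 497.3 in control 4w libraries, while control 1w libraries stood at 513.2 to 562.9. The mean CPM of PQ 4w was above that of control 1w in 30 of the 40 genes. How many of all genes have that order was not counted. CPM is scaled to library totals only, and with that scaling the median log2 effect of all genes at 4w was 0.076.

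**Figure D4:**
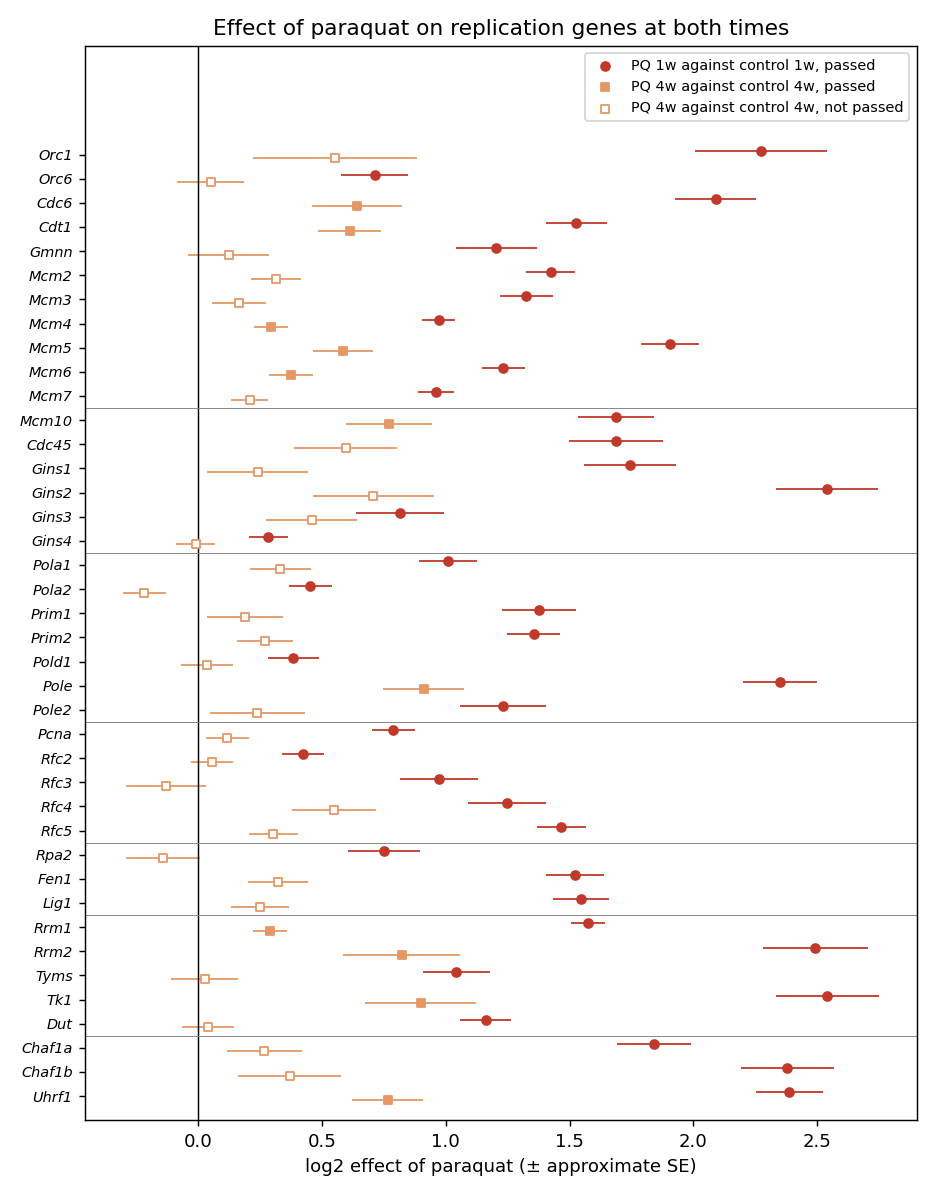
Log2 effect of paraquat (± approximate SE) for each replication gene at 1w (circles) and at 4w (squares), with filled symbols where adjusted p was under 0.05. Every 1w effect lies to the right of the 4w effect of the same gene, and the largest 4w effects are those of Pole (0.91), Tk1 (0.90) and Rrm2 (0.82).

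The paraquat effect differed between the times for 37 of the 40 genes by the interaction term, with a median of -1.1. It was most negative for Chaf1b (log2 -2.01 ± 0.28, adjusted p = 0.000361), Gins2 (log2 -1.83 ± 0.32, adjusted p = 0.00138) and Orc1 (log2 -1.72 ± 0.44, adjusted p = 0.0105). The smallest p belonged to Rrm1 (log2 -1.28 ± 0.10, adjusted p = 1.1e-05). Gins3, Gins4 and Pold1 did not pass, with log2 values of -0.36 ± 0.26, -0.29 ± 0.11 and -0.35 ± 0.15. Rfc2 and Rfc4 passed here but each in only 4 of the 12 fits with 1 library left out. In the treated lungs themselves, PQ 4w was below PQ 1w in 39 of the 40 genes, and the libraries of the 2 groups did not overlap in 38, where 27% of all genes were separated in that direction. Rrm2 was 7.18-fold lower in PQ 4w than in PQ 1w (log2 -2.84 ± 0.22, adjusted p = 8.92e-07), and Gins2 was 6.67-fold lower (log2 -2.74 ± 0.21, adjusted p = 9.05e-07).

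The saline groups also differed. The 4w effect is measured against control 4w, whose mean CPM was below that of control 1w in 30 of the 40 genes. This order of means was not counted over all genes. With adjusted p under 0.05, 12 of the 40 were lower in control 4w and 0 were higher, where 4.2% of all genes were lower and 5.9% higher. At an unadjusted p under 0.05, edgeR had 19 lower and 2 higher, where 12.8% of all genes were lower and 15.4% higher. DESeq2 called 13 lower and 0 higher, where it called 7.99% of all genes lower and 7.41% higher. The 12 were Cdc6, Mcm2, Mcm5, Mcm10, Gins2, Pola1, Pole, Rfc4, Rrm1, Rrm2, Tk1 and Uhrf1. The largest difference was that of Rrm2, 2.25-fold lower in control 4w (log2 -1.17 ± 0.23, adjusted p = 0.0208), followed by Gins2 (log2 -0.90 ± 0.24, adjusted p = 0.0396) and Mcm10 (log2 -0.87 ± 0.17, adjusted p = 0.0208). In 19 genes all control 4w libraries were below all control 1w libraries, where 14.2% of all genes were, and in 2, Pola2 and Rfc2, all were above, where 19.8% of all genes were. Of these 12 genes, 8 are among the 11 that rose at 4w, and both comparisons use the same control 4w libraries. The count of 12 was not stable, and calls over all genes moved with it. It was 0 without control 4w replicate 2, where 0.504% of all genes were lower (at an unadjusted p under 0.05, 16 of the 40 were lower and 1 higher, where 10.4% of all genes were lower and 11.2% higher). It was 1 without control 4w replicate 3 (0.69% of all genes), 1 without control 1w replicate 1 (0.876%), and 2 without control 1w replicate 3 (0.665%). It was 6 without control 1w replicate 2 (5% of all genes), 6 without control 4w replicate 1 (1.7%), 7 without PQ 1w replicate 1 (3.52%) and 7 without PQ 1w replicate 3 (2.59%). Markers of other cells also differed between the saline groups. Ciliated and club cell markers summed to 46668 to 54262 CPM in control 4w and 22302 to 31002 CPM in control 1w, with 3 of 7 higher, and cardiac muscle markers to 515.2 to 1435 CPM in control 4w and 75.9 to 289.3 CPM in control 1w, with 4 of 6 higher. Of the macrophage markers 3 of 9 were lower in control 4w, and of the fibroblast markers 3 of 8. Erythroid markers summed to 867 to 2771 CPM in control 4w and 3612 to 6064 CPM in control 1w, with 2 of 8 tested lower. B cell markers summed to 168 to 173 CPM in control 4w and 116 to 129 CPM in control 1w, with 2 of 6 tested higher. T cell markers summed to 26.1 to 27.5 CPM in control 4w and 34.4 to 45.9 CPM in control 1w, with 1 of 5 tested lower. Of the alveolar type 2 markers 2 of 7 were lower, and no tested endothelial or neutrophil marker passed. The part of these cell types in the difference between the saline groups was not tested.

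Among 40 other genes of origins and forks there were 28 rising, 2 falling and 10 not passing at 1w, with a median log2 of 0.61. Over all genes, 25.9% rose and 22.9% fell at 1w. Clspn, the checkpoint mediator claspin, rose most (6.54-fold, log2 2.71 ± 0.25, adjusted p = 4.11e-06), and Dtl, which targets Cdt1 for destruction, rose 5.63-fold (adjusted p = 1.02e-06). Ticrr, which helps load Cdc45, rose 5.53-fold (adjusted p = 1.35e-05). Top1, topoisomerase I, had the lowest effect and fell (log2 -0.51 ± 0.09, adjusted p = 0.000808), while Top2a, topoisomerase II alpha, rose 4.63-fold (adjusted p = 8.57e-07). At 4w, 9 of the 40 rose and 31 did not pass, where 5.75% of all genes rose. Without PQ 4w replicate 3, 5 rose and 1 fell, where 6.59% of all genes rose and 6.48% fell. Between 2 and 8 rose over the 12 single libraries left out (2.18% to 6.59% of all genes).

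Subunits of the same complex did not all rise. In the origin recognition complex, Orc1 and Orc6 rose as given above and Orc2 rose 1.25-fold (adjusted p = 0.00303), but Orc3, Orc4 and Orc5 had log2 effects of 0.10 ± 0.07, -0.04 ± 0.12 and 0.12 ± 0.10 and did not pass. In polymerase delta, Pold2 rose 1.41-fold (adjusted p = 0.000656), while Pold3 and Pold4 had log2 effects of -0.03 ± 0.07 and 0.15 ± 0.09. In polymerase epsilon, the histone-fold subunit Pole3 rose 1.44-fold (adjusted p = 0.000683) and its partner Pole4 had a log2 effect of -0.24 ± 0.10 (adjusted p = 0.0707). Of 3 MCM relatives outside the replicative ring, Mcm8, which acts in recombination, rose 1.85-fold (adjusted p = 0.00403), and Mcm9 and Mcmdc2 had log2 effects of 0.21 ± 0.13 and -0.26 ± 0.12.

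**Figure D5:**
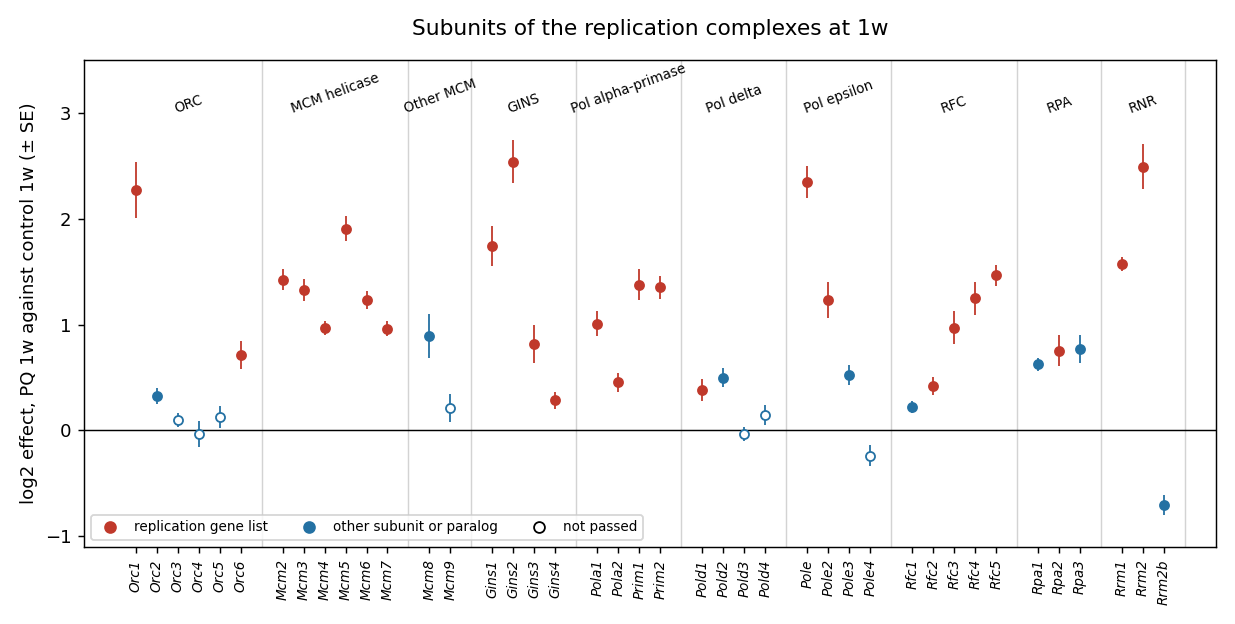
Log2 effect of PQ 1w against control 1w (± approximate SE) for subunits of replication complexes, in red for the 40 replication genes and in blue for other subunits or paralogs, with open circles where adjusted p was not under 0.05. Orc3, Orc4, Orc5, Pold3 and Pole4 lie near zero beside Orc1, Pole and Rrm2 at log2 effects above 2, and Rrm2b lies below zero at -0.71.

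Nucleotide supply outside the list was measured in 26 genes, with 17 rising, 3 falling and 6 not passing at 1w, with a median log2 of 0.29. Over all genes, 25.9% rose and 22.9% fell. Dctd, deoxycytidylate deaminase, rose most (3.73-fold, log2 1.90 ± 0.26, adjusted p = 8.64e-05). Rrm2b, the p53-induced alternative small subunit of ribonucleotide reductase, was at 20.04, 24.8 and 21.2 CPM in PQ 1w and 39.4, 31.4 and 36.1 CPM in control 1w. All its PQ 1w libraries were below the controls, and it fell by 0.71 on the log2 scale (SE 0.10, adjusted p = 9.29e-05), while Rrm2 rose. At 4w, 24 of the 26 did not pass and 2 fell, near the share of all genes that fell, 6.39%. The 2 were Impdh1 (log2 -0.66 ± 0.08, adjusted p = 0.00108) and Mthfd1 (log2 -0.35 ± 0.06, adjusted p = 0.00502), an enzyme of guanine nucleotide synthesis and one of folate metabolism.

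Regulators of the cycle were counted over 33 genes, most of them E2F and RB family members, cyclins and their kinases, and 9 others, namely Myc, Mycn, Mybl2, Foxm1, Lin9, Lin37, Lin54, Skp2 and Cdc25a. At 1w, 21 rose, 5 fell and 7 did not pass, with a median log2 of 0.78, where 25.9% of all genes rose and 22.9% fell. Cdk1 rose most (6.86-fold, log2 2.78 ± 0.18, adjusted p = 2.93e-07), and E2f2, an activator E2F, had the lowest effect and fell (log2 -0.52 ± 0.09, adjusted p = 0.000362). The S phase cyclins Ccne1 and Ccne2 rose 5.62-fold and 4.05-fold, with adjusted p of 4.54e-07 and 7.54e-05. The activator E2Fs did not move together: beside the fall of E2f2, E2f1 rose 2.08-fold (adjusted p = 3.81e-05) and E2f3 1.82-fold (adjusted p = 1.77e-05), and of the repressors that S phase induces, E2f7 rose 3.68-fold (adjusted p = 7.38e-07) and E2f8 4.73-fold (adjusted p = 9.46e-07). At 4w, 5 of the 33 rose and 6 fell, where 5.75% of all genes rose and 6.39% fell. With single libraries left out it was 3 to 7 in each direction, where 2.18% to 6.59% of all genes rose and 1.8% to 6.48% fell. The 5 that rose were E2f8 and, among the 9 others, Myc, Mycn, Mybl2 and Lin9. Among the 6 that fell were the D cyclins of G1 phase, Ccnd1 (log2 -0.52 ± 0.08, adjusted p = 0.00207), Ccnd2 (log2 -0.40 ± 0.12, adjusted p = 0.0437) and Ccnd3 (log2 -0.70 ± 0.09, adjusted p = 0.00108).

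Mitotic genes, used as a measure of the later part of the cycle, rose in 18 of 18 cases at 1w, with a median log2 of 2.31, and 9 of 18 rose at 4w (7 without PQ 4w replicate 3). Over all genes, 25.9% rose at 1w and 5.75% at 4w (6.59% without PQ 4w replicate 3). Their summed CPM were 690.6 to 801.3 in PQ 1w and 100.3 to 143.5 in PQ 4w, against 135.6 to 167.3 in control 1w and 73.5 to 79.7 in control 4w. Ccnb1, cyclin B1, had the largest effect at 1w (7.06-fold, log2 2.82 ± 0.19, adjusted p = 3.70e-07) and Cenpa, the histone of centromeres, the smallest (3.33-fold, log2 1.74 ± 0.11, adjusted p = 3.40e-07). In control 4w all 18 were lower than in control 1w, with a median log2 of -1.02, where 4.2% of all genes were lower. Between 9 and 18 were lower when 1 library was left out, where 0.504% to 6.67% of all genes were.

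Transcripts of other cell types moved with these groups. For the counts below, 25.9% of all genes rose and 22.9% fell at 1w, and 5.75% rose and 6.39% fell at 4w. Of 9 macrophage markers, 7 rose at 1w and 6 rose and 1 fell at 4w, and their summed CPM were 1147 to 1324 in PQ 1w and 703.8 to 807.3 in PQ 4w, against 456.0 to 476.4 in control 1w and 378.0 to 424.0 in control 4w. Of 8 fibroblast markers, 5 rose and 1 fell at 1w, with sums of 11080 to 12590 CPM in PQ 1w and 2889 to 3117 CPM in PQ 4w, against 3333 to 3500 CPM in control 1w and 2504 to 2655 CPM in control 4w. Markers of lymphocytes went the other way at 1w: of 6 tested B cell markers 6 fell, with sums of 27.5 to 30.6 CPM in PQ 1w and 116 to 129 CPM in control 1w, and of 5 tested T cell markers 5 fell. In PQ 4w the B cell sum was 103 to 274 CPM and in control 4w 168 to 173 CPM. Of the 5 tested T cell markers 3 rose at 4w, with sums of 32.9 to 71.0 CPM in PQ 4w and 26.1 to 27.5 CPM in control 4w. Of 6 tested neutrophil markers, 3 fell at 1w and 5 at 4w. Thymocyte markers, a list that includes Cd4 and Lck, summed to 19.98 to 26.2 CPM in PQ 1w and 51.3 to 57.8 CPM in control 1w. Rag1 was at 0 in PQ 1w. At 4w the thymocyte sums were 38.0 to 86.3 CPM in PQ 4w and 33.3 to 42.3 CPM in control 4w. Of 4 tested thymocyte markers, 3 fell at 1w and 1 rose at 4w. Erythroid markers summed to 726.9 to 2025 CPM in PQ 1w and 3612 to 6064 CPM in control 1w, and 6 of 8 tested fell. Of 7 endothelial markers, 6 fell at 1w and 7 at 4w, and of 7 alveolar type 2 markers, 5 fell at 1w and 1 rose at 4w. Ciliated and club cell markers summed to 4469 to 5571 CPM in PQ 1w and 24018 to 47860.5 CPM in PQ 4w, against the control sums given above, and 3 of 7 fell at 1w and 1 of 7 at 4w. Cardiac muscle markers, at 70.2 to 232 CPM in PQ 1w and 145.1 to 916.0 CPM in PQ 4w, did not pass at either time. The part of these cell types in the replication gene results was not tested.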

How the data were processed

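RNA-seq of 12 lung libraries was made from homogenized lung, per the labels. Expected counts per gene were deposited by the authors; per the submitters' processing notes the tools were HISAT (version not given) and RSEM 1.2.12, with the mm10 build. The deposited FPKM values are scaled by the authors to library and transcript length. Of the deposited expected counts 73.3% were whole numbers, and all were rounded for testing. Symbols turned into dates were restored for 27 genes. Counts were scaled to CPM by library total, which ranged from 17220978 to 18559809.

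All 12 libraries entered 1 fit of 4 group means by edgeR 4.0.16 (R 4.3.3), with TMM factors of 0.974 to 1.057 and genes kept by expression (minimum count 10, minimum total 15), leaving 15921. P-values are quasi-likelihood tests with Benjamini-Hochberg adjustment over all genes tested, at 0.05, and the standard error is the log2 effect over the square root of F. The procedure was tested on simulated data. Alternatives were DESeq2 1.42.0, limma 3.58.1 on log2(FPKM + 0.1) and log2(FPKM + 1), other scalings and filters, a replicate block, a fit of only the groups compared and each library left out.

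The 40 genes and the other lists were chosen with earlier results of these data known. Genes given with every library were those with the highest mean CPM and with the largest and smallest effect at 1w in each role, and those that rose at 4w. From each other list, the genes with the largest and smallest called effects were taken, and others named were chosen after their values were seen. Gene positions are from the NCBI gene table of GRCm38.p6 and shared exon bases from GENCODE vM21 (GRCm38), the same build as mm10. RefSeq promoters of GRCm38.p6 held 32 of the 40 genes. Transcript length differs between libraries for 24% of genes, which affects FPKM. Strandedness of counting is not given in the sources used here.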

Additional observations from a re-analysis of the deposited data

Results flagged for a closer look

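The paraquat effect of 37 of the 40 replication genes differed between the times by a test of the difference itself, the edgeR interaction term with adjusted p under 0.05. The values are log2 effects at 4w minus those at 1w, and all 37 lie below zero.

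Among genes of licensing the values were -1.72 for Orc1, -0.66 for Orc6, -1.45 for Cdc6, -0.92 for Cdt1, -1.08 for Gmnn, -1.11 for Mcm2, -1.16 for Mcm3, -0.68 for Mcm4, -1.32 for Mcm5, -0.86 for Mcm6 and -0.75 for Mcm7. Among genes of helicase activation the values were -0.92 for Mcm10, -1.09 for Cdc45, -1.5 for Gins1 and -1.83 for Gins2. Among genes of primase and polymerases the values were -0.68 for Pola1, -0.67 for Pola2, -1.19 for Prim1, -1.08 for Prim2, -1.44 for Pole and -1.0 for Pole2. Among genes of clamp and loader the values were -0.67 for Pcna, -0.37 for Rfc2, -1.1 for Rfc3, -0.70 for Rfc4 and -1.16 for Rfc5. Among genes of single-strand binding and Okazaki fragments the values were -0.89 for Rpa2, -1.20 for Fen1 and -1.30 for Lig1. Among genes of nucleotide supply the values were -1.28 for Rrm1, -1.67 for Rrm2, -1.02 for Tyms, -1.64 for Tk1 and -1.12 for Dut. Among genes of chromatin the values were -1.57 for Chaf1a, -2.01 for Chaf1b and -1.62 for Uhrf1.

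Gins3, Gins4 and Pold1 did not pass this test. The calls of Rfc2 and Rfc4 were not firm, since each passed in 4 of the 12 fits with 1 library left out. Of 8 other settings, Rfc2 passed in 3 and Rfc4 in 4. By DESeq2 their adjusted p were 0.0513 and 0.0692. Orc6 passed in 9 of the 12 fits with 1 library left out. PQ 4w and PQ 1w were each compared with the saline group of their own time. Between those saline groups, 12 of the 40 genes were lower at 4w with adjusted p under 0.05, where 4.2% of all genes were. Control 4w had the lower mean CPM in 30, an order not counted over all genes. The part of the difference between the saline groups in the values above was not tested.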

How the results depend on the processing

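At 1w, the effects of all 40 genes kept their direction and their side of the threshold under the 9 other settings and with each of the 12 libraries left out. At 4w the number of replication genes that rose was 15 with library totals only, where 8.6% of all genes rose, and 3 when the fit held only the libraries compared, where 366 of all genes rose and 380 fell. The number of all genes that fell at 4w was 631 with library totals only, 607 on log2(FPKM + 0.1) and 617 on log2(FPKM + 1), and between the saline groups it was 1223 by DESeq2. With 1 library left out, 5 to 14 replication genes rose at 4w, and over all genes 351 to 1061 rose and 290 to 1043 fell. Between the saline groups, 0 to 14 were lower and 0 to 1 higher at 4w, and over all genes 81 to 1073 were lower and 32 to 1497 higher.

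At 4w the log2 effect of Gins4 changed sign, to 0.0078 by DESeq2, 0.0077 with RLE size factors, 0.062 with library totals only, 0.062 on log2(FPKM + 0.1) and 0.059 on log2(FPKM + 1). Between the saline groups it became -0.0090 by DESeq2 and with RLE size factors. Genes whose direction changed when 1 library was left out had small effects. At 4w these ranged over -0.0169 to 0.14 for Orc6, -0.0454 to 0.0519 for Gins4, -0.0467 to 0.12 for Pold1, -0.0182 to 0.14 for Rfc2, -0.26 to 0.0199 for Rfc3, -0.11 to 0.12 for Tyms and -0.0171 to 0.10 for Dut. Between the saline groups they ranged over -0.0131 to 0.11 for Orc6, -0.0493 to 0.0319 for Gins4, -0.16 to 0.0422 for Prim1, -0.0989 to 0.0451 for Pold1, -0.0416 to 0.21 for Rfc3, -0.0965 to 0.17 for Rpa2, -0.0348 to 0.20 for Tyms, -0.0879 to 0.00892 for Dut and -0.10 to 0.20 for Chaf1a. The cause of these changes was not tested.

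The interaction passed for 34 to 37 genes with 1 library left out. Deviations of same-numbered replicates had correlations of -0.41 to 0.29, and those of other-numbered replicates -0.37 to 0.38. With 3 libraries per group this cannot settle whether the numbers pair the samples. With the replicate number as a block, 9 genes rose at 4w and 10 were lower between the saline groups. Without the block 11 rose and 12 were lower, where 5.75% of all genes rose and 4.2% were lower. Shares of all genes with the block are not given here. Counts of the other gene lists with libraries left out were added after the data were seen. Approximate standard errors of the 40 genes were 0.07 to 0.33 at 4w and 0.07 to 0.27 at 1w, while the median log2 effect was 0.29 at 4w and 1.37 at 1w.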
